A study of Mus musculus with 4 samples.

Results

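Genes longer than 250 kb that gave nascent RNA in CD4 and CD8 double positive (DP) thymocytes were compared between mice with and without Tox4. A gene belonged to this set if its length in the deposited table, introns included, was over 250000 bp and if its level averaged at least 1 CPM over the 4 libraries. CPM is the share of a library's fragments that a gene takes, scaled in the usual way to the library total. Of 24984 genes in the table, 739 were that long, 387 of them were below 1 CPM, 6 were left out by name (Tox, Tcf4, Tcf12, Ppp3ca, Zfp407 and Zfp536), and 346 remained. They were 346 of the 11625 genes with a mean of at least 1 CPM. They were thus chosen by length and by mean level, so the level is given below as a description. The difference between genotypes was not a term of the rule. The set, the lists and the rule were, however, chosen with earlier results of these data known, and Lrmda and Dnm3 were singled out in the same way.

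The libraries came from TTchem-seq, in which newly made RNA is labelled with 4-thiouridine, fragmented, enriched and sequenced. Control mice (titled WT, genotype Tox4;F/F) carried the floxed Tox4 allele without Cre, and conditional knockout mice (cKO) carried it with Lck-Cre. There were 2 libraries of each genotype, and every group therefore shared the floxed allele, the C57BL/6 background of the floxed line and an age of 6 to 8 weeks. Per the methods, Cre was driven by the proximal Lck promoter, which acts in thymocytes before the DP stage, loxP sites flanked exons 4 to 6 of Tox4 and mice were littermates matched for sex. Xist, given below, was high in control replicate 1 only, so these libraries do not look matched for sex. The methods describe isolation of DP cells with CD4 beads for other assays, and how the cells of these libraries were isolated is not stated. In bulk libraries, a change in the RNA made per cell and a change in the share of cells that make it cannot be told apart.

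RNA polymerase II has to travel through the whole of a long gene, most of which is intron, before a full transcript is released. Factors that control pausing, elongation rate, premature termination and recycling can therefore act differently on long and on short genes. TOX4 is part of a complex with protein phosphatase 1, PNUTS and WDR82, which dephosphorylates the transcription machinery. Very long mammalian genes are also known for neuronal adhesion molecules and synaptic proteins, and several of the longest host common fragile sites, loci that break under replication stress.

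The starts of 7 of these genes are shown because the results turn on them: Lrmda and Dnm3, singled out above, Kcnq5 and Nfia, the increases with the smallest adjusted p-values, Igf1r, the largest decrease, Slit3, the decrease with the smallest adjusted p-value, and Mad1l1, the gene with the most fragments per kb. Each line holds the 250 bases before the RefSeq start nearest the 5′ end in the table (GRCm38.p6), 5′ to 3′ on the gene's strand, with CpG dinucleotides in capitals. The windows lay at chr14:22019462-22019711 (+) for Lrmda, chr1:162478035-162478284 (-) for Dnm3, chr1:21962651-21962900 (-) for Kcnq5, chr4:97581693-97581942 (+) for Nfia, chr7:67952007-67952256 (+) for Igf1r, chr11:35121206-35121455 (+) for Slit3 and chr5:140321553-140321802 (-) for Mad1l1.
Lrmda: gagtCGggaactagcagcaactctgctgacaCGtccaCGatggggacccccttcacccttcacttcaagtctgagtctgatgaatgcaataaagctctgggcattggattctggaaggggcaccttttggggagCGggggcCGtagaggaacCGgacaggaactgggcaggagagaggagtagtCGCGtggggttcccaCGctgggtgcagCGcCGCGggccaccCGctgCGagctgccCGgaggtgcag
Dnm3: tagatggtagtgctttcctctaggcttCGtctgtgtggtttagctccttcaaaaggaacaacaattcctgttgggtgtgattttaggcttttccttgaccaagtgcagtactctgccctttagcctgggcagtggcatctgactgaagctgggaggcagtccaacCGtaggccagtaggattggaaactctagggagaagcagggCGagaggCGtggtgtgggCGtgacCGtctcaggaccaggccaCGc
Kcnq5: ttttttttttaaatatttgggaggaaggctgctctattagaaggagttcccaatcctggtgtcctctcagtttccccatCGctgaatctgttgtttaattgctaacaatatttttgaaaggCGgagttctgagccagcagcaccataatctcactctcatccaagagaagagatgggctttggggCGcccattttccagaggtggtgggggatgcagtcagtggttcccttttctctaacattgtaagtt
Nfia: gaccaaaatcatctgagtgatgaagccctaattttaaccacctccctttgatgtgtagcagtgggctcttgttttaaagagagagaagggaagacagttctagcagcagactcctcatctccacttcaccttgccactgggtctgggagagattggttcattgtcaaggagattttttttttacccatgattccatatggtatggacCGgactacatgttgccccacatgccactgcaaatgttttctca
Igf1r: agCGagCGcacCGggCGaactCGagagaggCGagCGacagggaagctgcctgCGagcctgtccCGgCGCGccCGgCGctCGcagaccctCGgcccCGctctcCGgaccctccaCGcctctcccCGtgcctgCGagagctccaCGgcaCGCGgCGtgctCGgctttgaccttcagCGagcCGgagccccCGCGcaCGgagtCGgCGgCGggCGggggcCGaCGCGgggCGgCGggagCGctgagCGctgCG
Slit3: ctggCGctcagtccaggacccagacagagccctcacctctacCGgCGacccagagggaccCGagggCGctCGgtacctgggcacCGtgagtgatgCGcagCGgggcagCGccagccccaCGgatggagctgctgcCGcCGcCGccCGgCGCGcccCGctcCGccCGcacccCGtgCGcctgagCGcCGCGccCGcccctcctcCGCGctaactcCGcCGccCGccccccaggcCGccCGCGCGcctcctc
Mad1l1: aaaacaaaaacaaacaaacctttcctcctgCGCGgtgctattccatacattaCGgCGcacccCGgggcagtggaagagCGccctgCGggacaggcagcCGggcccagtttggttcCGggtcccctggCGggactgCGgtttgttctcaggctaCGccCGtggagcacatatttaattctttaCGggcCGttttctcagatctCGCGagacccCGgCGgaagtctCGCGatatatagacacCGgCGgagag

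The 7 windows differed in CpG content. Nfia held 1 CpG, Kcnq5 held 3 and Dnm3 held 7, whereas Lrmda held 15, Mad1l1 23, Slit3 35 and Igf1r 42. Over the 249 long genes with a start in the RefSeq table within 1000 bp of their 5′ end, the median was 18 CpG and 65.5% of windows were CpG rich, that is, of at least 50% GC with an observed over expected CpG ratio of at least 0.6. Over the 8930 genes of at least 1 CPM with such a start, the median was 17 CpG and 67.2% were CpG rich. The long genes thus resembled other expressed genes in this respect, and all 17893 matched genes, expressed or not, had a median of 10 CpG and 42.2% CpG-rich windows.

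Short motifs were searched on both strands of the same windows. A GC box (GGGCGG) was found in 58.2% of long genes, 61.1% of expressed genes and 43.1% of all genes, and a TATA box (TATAAA) in 6.02%, 5.81% and 11.9%. A CCAAT box (CCAAT) was found in 30.9%, 37.4% and 36.0%, an ETS motif (CCGGAAG) in 7.23%, 15.5% and 9.21%, a RUNX motif (TGTGGT) in 7.63%, 10.5% and 12.1%, and an E-box (CANNTG) in 55.8%, 56.0% and 62.8%. Of the printed windows, those of Igf1r and Slit3 held the GC box, those of Lrmda, Dnm3, Kcnq5 and Nfia held CCAAT, Dnm3 also held TGTGGT, and none held TATAAA. These matches describe the letters and not binding.

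The long genes covered a wide range of output. Their mean level ran from 1.003 to 5538 CPM with a median of 54.5, against a median of 26.5 CPM over all 11625 genes. Per length the order turned, since the long genes had a median of 0.142 CPM per kb and all expressed genes 1.46. Their median length was 366422.5 bp against 22650 bp, 93 were over 500 kb and 26 were over 1000 kb. Together they took 11.5% and 10.7% of fragments in the control libraries and 11.1% and 11.1% in the cKO libraries, for 28.2% of the bases of expressed genes. The 10 highest took between 31.1% and 32.6% of the fragments of the set in each library.

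Mad1l1, a spindle checkpoint gene, was the highest by both measures, at 5798 and 5486 CPM in the control libraries and 5168 and 5701 in the cKO libraries. Cux1, a homeodomain factor, followed at 5241, 4654, 4362 and 4609 CPM. Foxp1, a forkhead factor of lymphocytes, was at 4605, 4061, 4414 and 4116, Msi2, an RNA-binding protein, at 3882, 3518, 3327 and 3348, and Mgat5, a glycosyltransferase that branches N-glycans, at 3296, 3088, 3286 and 3384. None of these 5 passed the test between genotypes at a fold of 1.2. Ppm1h, a protein phosphatase, completed the 5 densest at 9.15 CPM per kb, after Mad1l1 at 17.7, Cux1 at 14.8, Mgat5 at 11.7 and Msi2 at 9.29.

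The label of a transcribed gene was checked against a background density, since a long gene collects stray fragments in proportion to its length. Odorant, vomeronasal and taste receptor genes, which thymocytes are not known to use, served as the measure, without the 15 of 1501 with the most fragments. They held 1.31 and 0.52 CPM per Mb in control replicates 1 and 2, and 0.375 and 0.594 in cKO replicates 1 and 2, from 274, 124, 70.5 and 115.5 fragments. Long genes under 1 CPM gave similar values, 1.198, 0.496, 0.515 and 0.553 CPM per Mb. Control replicate 1 therefore had a background over 2 times that of the other libraries. In every library, 240 of the 346 genes were at 10 or more times the background, and 106 were below this in 1 or more. Of the latter, 21 were among the 26 longest. In at least 1 library, 6 genes lay at or below the background, among them Anks1b, Cntnap2, Lsamp, Ptprd and Dmd. For these genes the counts do not show transcription above stray fragments in every library.

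**Figure D1:**
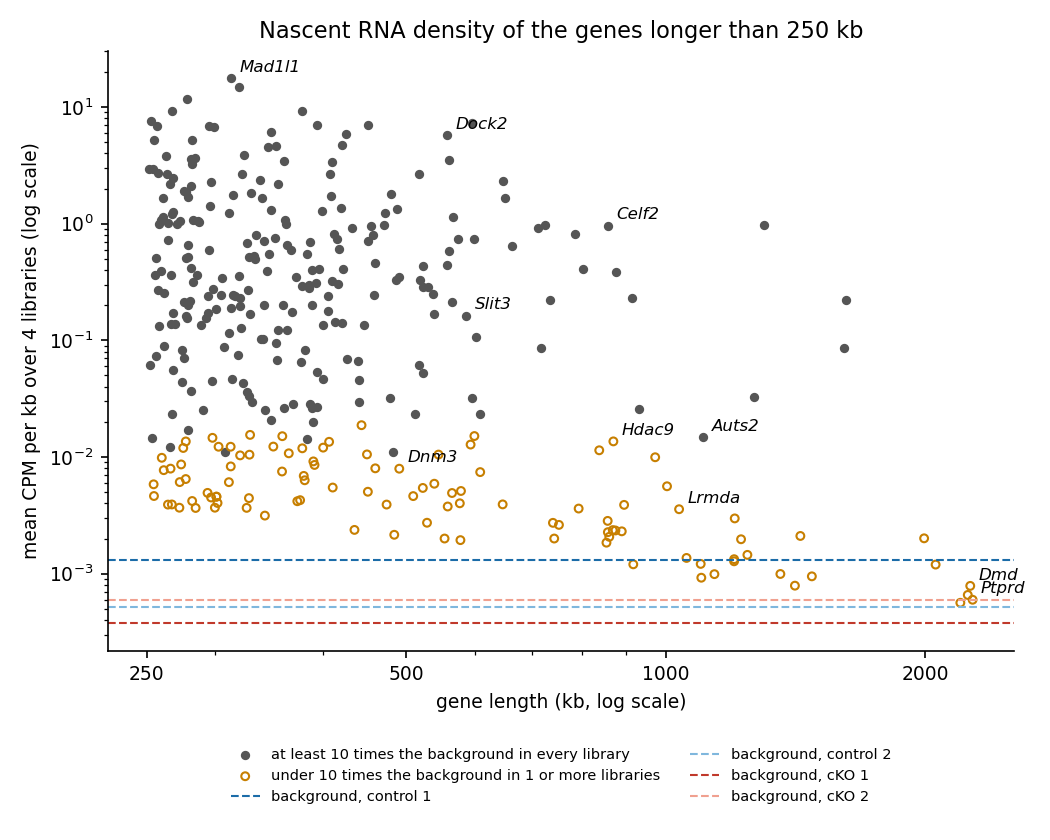
Mean CPM per kb over the 4 libraries against gene length, both on log scales, for the 346 genes longer than 250 kb; dashed lines give the background density of each library from receptor genes. Densities fall with length, the 106 open circles lie under 10 times the background in 1 or more libraries, and Ptprd and Dmd lie among the background lines.

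The 4 longest genes were of this kind. Ptprd, a receptor phosphatase of synapses (2271 kb), was at 2.96 and 0.575 CPM in the controls and 1.12 and 0.78 in the cKO libraries. Dmd, which encodes dystrophin (2256 kb), was at 2.53, 1.73, 1.25 and 1.58, Cntnap2, an adhesion molecule of axons (2241 kb), at 2.58, 1.42, 1.01 and 0.88, and Lsamp, an adhesion molecule of neurons (2197 kb), at 2.51, 0.822, 0.963 and 0.654. Control replicate 1 was the highest library for all 4, as it was for the background. None passed the test, with adjusted p-values of 0.33 to 0.66.

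At the limits of the set, Hdac4 (251563 bp) and Angpt1 (252311 bp) were just inside the length limit, and Rgl1 (249543 bp) and Rfx3 (249446 bp) just outside. Bank1 (1.003 CPM) and Anks1b (1.02 CPM) were just inside the level limit, and Kif26b (0.992 CPM) just outside. In the control libraries alone 5 of the 346 genes averaged under 1 CPM, and in the cKO libraries alone 9 did, so few passed through one genotype. Of the 346 rows, 341 were a single stretch of the genome, and 5 (Mir5098, Fam205a3, Fam205a4, Gm21119 and Bc1) summed intervals at several places, so their length is not that of a gene. Fam205a3 and Fam205a4 had identical rows, as had Gm38667, Gm38666 and Gm37013, and 61 genes overlapped another gene on the same strand. By RefSeq, 323 were protein coding and 4 were long noncoding RNAs, and 14 lay on the X chromosome. Their median GC content was 42.0% against 45.8% over expressed genes, they had a median of 17.5 exons against 9, and a median of 1.55% of their length was exonic against 13.2%.

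Gene length moved with the library and not only with the genotype. Before any correction, the median deviation of genes of 250 to 500 kb from the mean of the 4 libraries was -0.01 and -0.04 (log2) in the control libraries and 0.02 and 0.04 in the cKO libraries. For genes under 10 kb it was -0.01 and 0.08 in the controls and 0.01 and -0.05 in the cKO. Control replicate 2 was thus lowest for long and highest for short genes. The trend of each library on length was therefore removed before the test. After this the median deviation of all 346 genes lay between -0.004 and 0.003 in each library. These genes were part of the fit, so such small values follow from the correction itself.

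The 26 genes over 1000 kb did not follow the trend. Their median deviation was 0.49 (log2) in control replicate 1 and -0.03 in control replicate 2, against -0.04 and -0.12 in the cKO libraries, and it remained 0.46 in control replicate 1 after the correction. The median log2 fold change of this class (cKO over control, no correction) was -0.29, and it was -0.07 without control replicate 1 and -0.59 without control replicate 2. In this class 1 library stood apart, and it was the library with the highest background; the part of the background in the class median was not tested.

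**Figure D2:**
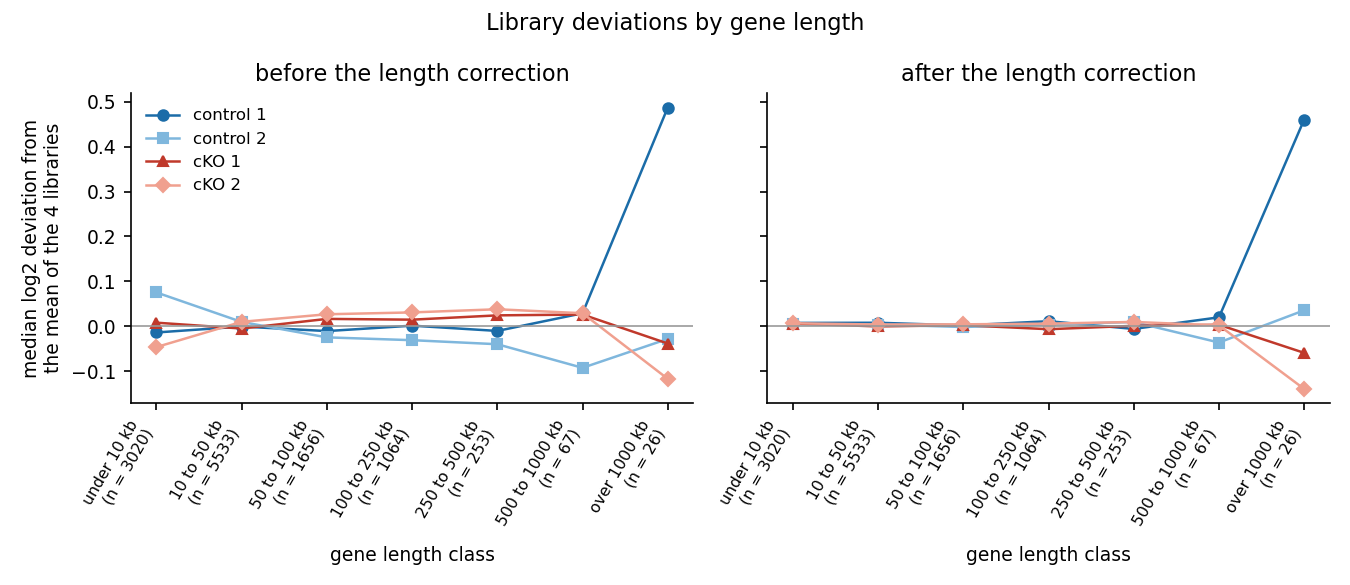
Median log2 deviation of each library from the mean of the 4 libraries, by gene length class, before (left) and after (right) removal of the length trend; the number of genes is under each class. Deviations of genes up to 1000 kb stay within 0.1, and the 26 genes over 1000 kb are at 0.49 before and 0.46 after the correction in control replicate 1.

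The log2 fold changes of the long genes as a set were summarised. With the length trend removed, the median was -0.01 over the 346 genes, with quartiles of -0.20 and 0.18, against 0.00 over all genes tested, and 165 of 346 were higher in cKO. Without the correction it was 0.04 and 194 were higher. The correction moved a gene by 0.05 on the log2 scale at the median. The trend was fitted with the long genes in it, so a shift common to them is removed by construction. The corrected median therefore cannot show whether the set as a whole made more or less RNA. With a trend from genes of at most 250 kb the median was -0.07. The median also turned from negative to positive with the correction kept, at 0.00399 without control replicate 2 and 0.00225 for genes with a mean of at least 2 CPM, so no direction is given for the set.

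Single genes moved in either direction. With the length trend removed, 19 long genes rose and 20 fell in cKO cells (adjusted p under 0.05 by DESeq2, fold of at least 1.2), or 5.49% and 5.78% of the 346. Over all 11625 genes tested, 1.98% rose and 1.62% fell. Without the correction 25 rose and 13 fell, or 7.23% and 3.76%, against 2.14% and 1.57% over all genes. The same direction was found for all 32 genes called in both, 6 increases were lost with the correction and 7 decreases were gained. The long genes thus had a larger share of calls than all genes in each analysis, while the balance between increases and decreases changed with the length correction. The share was also above that of all genes in genes of 100 to 250 kb, of which 4.98% rose and 2.82% fell (6.3% and 2.26% without the correction), against 5.53% and 5.93% (7.51% and 4.35%) at 250 to 500 kb, and the difference between these classes was not tested.

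This share stands beside other measures, of which the standard error was lower for long genes and the others were higher. A difference of at least 1.2-fold between genotypes was found for 37.0% of long genes and 22.9% of all genes. The same was found between the 2 control libraries for 30.3% against 21.6%, and between the 2 cKO libraries for 28.0% against 22.1%. Long genes thus had the larger share also within a genotype, and the difference was not tested. The median standard error of the log2 fold change was 0.13 for long genes and 0.15 for all genes. In 28.3% of long genes both cKO libraries lay above both control libraries, against 23.8% of all genes, and in 29.8% both lay below, against 24.8%.

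The number of calls depended on the tool. The edgeR quasi-likelihood test called 6 increases and 2 decreases among the long genes, or 2.31% either way against 0.499% of all genes. The increases were Lrmda, Dnm3, Pde10a, Ntrk3, Kcnq5 and Nfia, and the decreases Igf1r and Slco3a1. limma voom called these 8 and 5 more (Adam12, Zdhhc14, Itpr1, Dock2 and Babam2), against 0.628% of all genes. When each library was left out in turn, 6 genes were called by DESeq2 every time: Kcnq5, Nfia, Ntrk3, Adam12, Slco3a1 and Slit3.

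**Figure D3:**
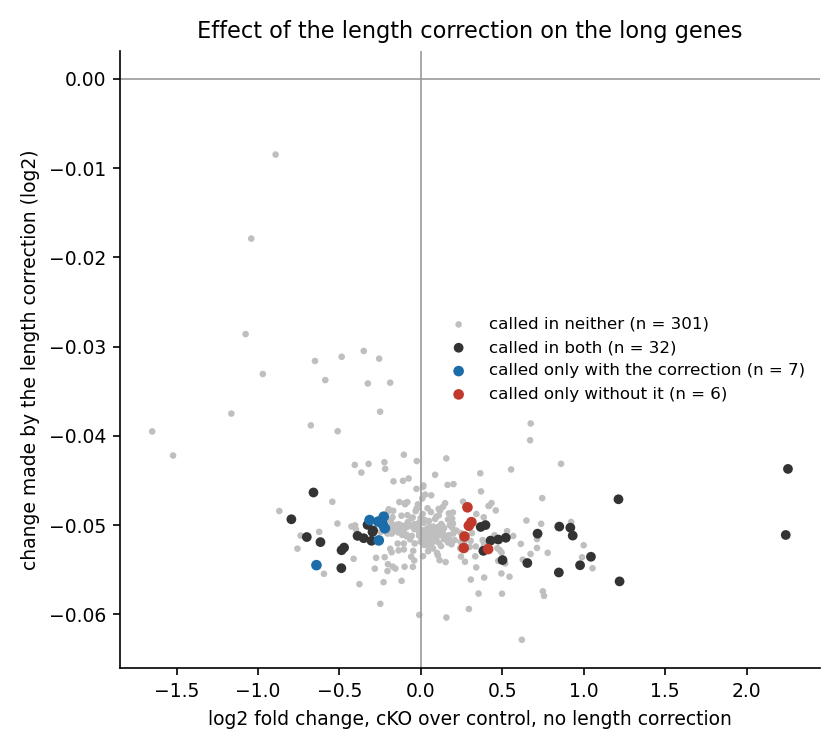
Shift in log2 fold change made by removing the length trend (vertical axis) against the log2 fold change, cKO over control, without the correction (horizontal axis), for the 346 long genes. Nearly all shifts are close to -0.05, 32 genes are called in both analyses, 7 on the left only with the correction and 6 on the right only without it.

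Lrmda, a leucine-rich repeat gene associated with melanocyte differentiation (chr14:22019712-23056088, 1036 kb), was at 1.48 and 1.09 CPM in the control libraries and 5.28 and 6.94 in the cKO libraries. These were 63, 53, 203 and 276 fragments. The log2 fold change was 2.21 ± 0.35 (SE; adjusted p = 1.6e-07), 2.25 without the length correction. In the controls its density was 1.43 and 1.05 CPM per Mb, which was 1.09 and 2.02 times the background of those libraries. In the cKO libraries it was 5.10 and 6.70, or 13.6 and 11.3 times the background. With the background of each library subtracted, the means were 0.333 CPM in control and 5.61 CPM in cKO, a log2 ratio of 4.08. The size of the fold is poorly bounded, because the control level was near the background in control replicate 1.

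Dnm3, which encodes a dynamin, a GTPase of membrane fission (chr1:161987302-162478034, 491 kb), was at 1.38 and 1.34 CPM in the controls and 5.59 and 7.27 in the cKO libraries. The log2 fold change was 2.19 ± 0.34 (adjusted p = 4.2e-08). Its density was 2.82 and 2.72 CPM per Mb in the controls and 11.4 and 14.8 in the cKO. With the background subtracted the log2 ratio was 2.77. In Lrmda and Dnm3 the libraries of the genotypes did not overlap, and leaving out any 1 library kept the log2 fold change between 1.99 and 2.41, but without cKO replicate 2 neither gene was called.

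Kcnq5, a voltage-gated potassium channel, was at 82.6 and 82.0 CPM in the controls and 161 and 151 in the cKO libraries, a log2 fold change of 0.87 ± 0.09 (adjusted p = 7.7e-21). Ntrk3, the receptor for neurotrophin 3, was at 64.0 and 80.8 CPM against 146 and 140 (0.92 ± 0.12, adjusted p = 1.7e-12). Pde10a, a phosphodiesterase for cyclic AMP and GMP, was at 104 and 151 CPM against 280.4 and 316 (1.16 ± 0.31, adjusted p = 0.0081). The cKO libraries were close to each other for Kcnq5 and Ntrk3, and the controls of Pde10a lay apart, control replicate 1 being the lower.

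Angpt1, the secreted ligand of the Tie2 receptor, was at 8.68 and 11.7 CPM in the controls and 18.6 and 23.6 in the cKO libraries (0.99 ± 0.20, adjusted p = 0.00014). Myo3b, an unconventional myosin, was at 2.58 and 1.74 against 6.14 and 3.85 CPM (1.17 ± 0.37, adjusted p = 0.047). D430041D05Rik was at 4.25 and 4.38 against 9.47 and 7.07 CPM (0.88 ± 0.27, adjusted p = 0.03). The cKO libraries lay above the controls for these 3 genes, and in Myo3b and D430041D05Rik they differed more from each other than in Kcnq5 or Ntrk3.

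Pola1, the catalytic subunit of DNA polymerase alpha, was at 60.4 and 76.2 CPM in the controls and 109 and 107 in the cKO libraries (0.60 ± 0.12, adjusted p = 6.4e-05). Diaph3, a formin that nucleates actin filaments, was at 117 and 145 against 191 and 181 CPM (0.45 ± 0.11, adjusted p = 0.0029). In both genes control replicate 1 was the lowest library, and without it the log2 fold changes were 0.42 and 0.27. Babam2, a member of the BRCA1-A and BRISC complexes, was at 227 and 221 against 298 and 327 CPM (0.42 ± 0.08, adjusted p = 9.4e-06). Over the 19 increases, control replicate 1 was below control replicate 2 in 15, and the median log2 fold change of the 19 was 0.79 and 0.54 without control replicate 1.

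Smaller increases included Acoxl, an acyl-CoA oxidase-like gene, Stk3, a Hippo pathway kinase, Mpp7, a polarity scaffold, Gphn, the scaffold protein gephyrin, with log2 fold changes of 0.32 to 0.47 (0.29 for Acoxl without cKO replicate 1). A further 3 increases, of transcription regulators, are described below.

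**Figure D4:**
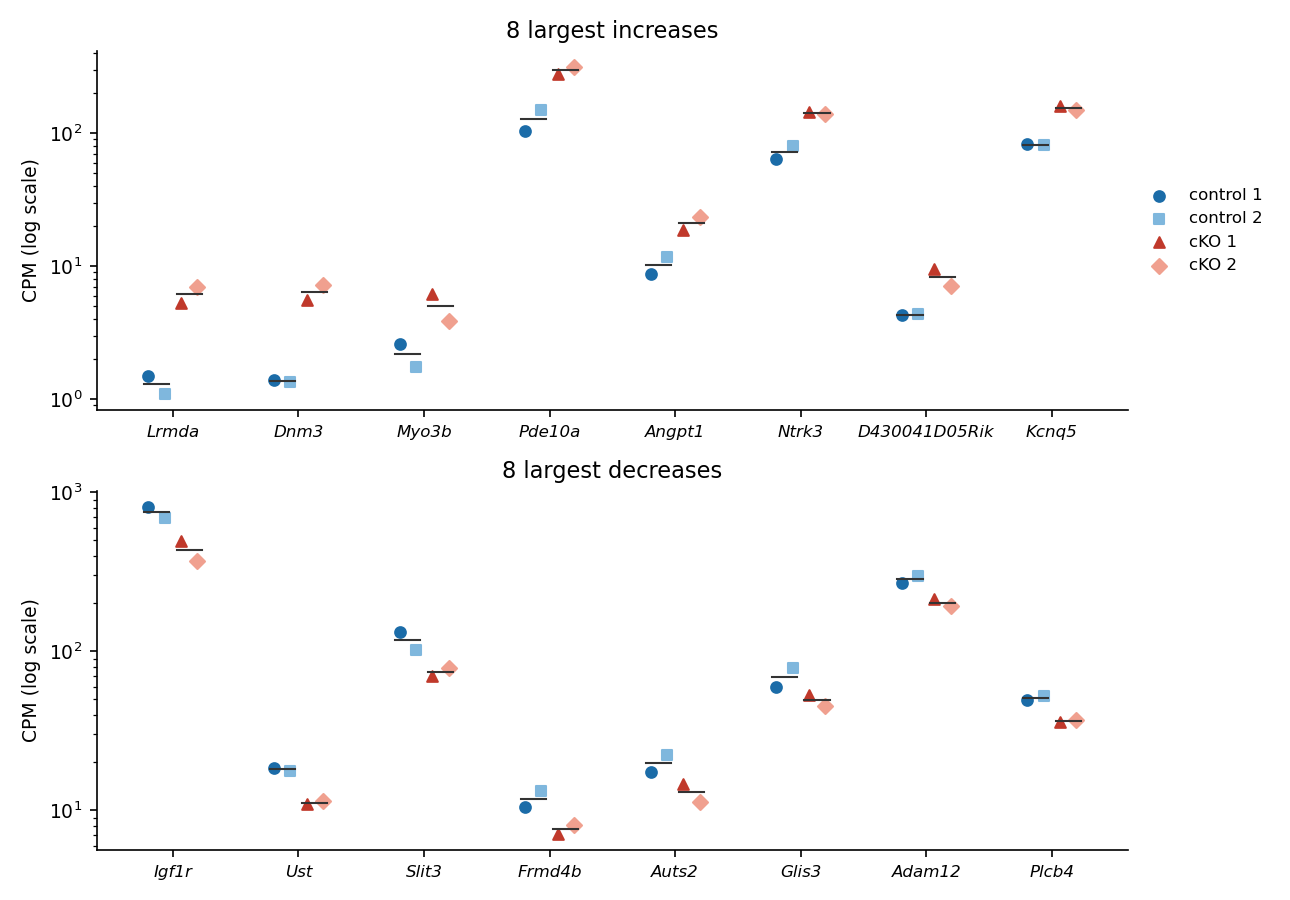
CPM (log scale) of the 8 largest increases and 8 largest decreases among long genes called with separated libraries; points are single libraries, bars are the mean of the 2 libraries of a genotype. In each gene both cKO libraries lie on the same side of both controls, and Lrmda, Dnm3 and Myo3b have the lowest control levels.

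Of the genes called lower in cKO, Igf1r had the lowest log2 fold change. Igf1r, the receptor for insulin-like growth factor 1 (chr7:67952257-68233667), was at 809 and 689 CPM in the controls and 493 and 372 in the cKO libraries, a log2 fold change of -0.84 ± 0.22 (adjusted p = 0.0063). Slit3, a secreted ligand of Robo receptors, was at 133 and 102 against 69.9 and 78.6 CPM (-0.71 ± 0.11, adjusted p = 2e-07). Adam12, a membrane metalloprotease, was at 270.4 and 296 against 212 and 193 CPM (-0.54 ± 0.09, adjusted p = 2.2e-07). Ust, a sulfotransferase of glycosaminoglycans, was at 18.6 and 17.7 against 11.0 and 11.4 CPM (-0.75 ± 0.17, adjusted p = 0.00084). The genotypes did not overlap for any of the 4, and the cKO libraries of Igf1r were the most spread.

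Frmd4b, a FERM domain scaffold, was at 10.5 and 13.3 against 7.12 and 8.12 CPM (-0.70 ± 0.22, adjusted p = 0.049), and its call was gained with the length correction. Slco3a1, an organic anion transporter, was at 525 and 535 against 421 and 412 CPM (-0.40 ± 0.07, adjusted p = 1.4e-06). It was among the tightest of the decreases within each genotype. The other decreases outside the lists below were Fndc3b, Dip2c, Mast4, Csgalnact1, Zdhhc14, Pip5k1b and Patj, with log2 fold changes of -0.44 to -0.28. Of the called genes none fell by 2-fold, whereas 4 rose by 2-fold or more. All genes were refitted with a library left out. Of the called long genes, only Kcnq5, Nfia, Ntrk3, Adam12, Slco3a1 and Slit3 kept their call throughout. Among the genes that the naming rule gave, Frmd4b, Hdac9, Myo3b, Ust and D430041D05Rik lost their call with any 1 library left out. Angpt1, Dock2, Hivep3, Igf1r, Itpr1, Nav2, Patj, Pde10a, Plcb4 and Prkce lost it with at least 1 of the 4 left out. So did every other called long gene, Babam2, Acoxl, Stk3, Mpp7 and Fndc3b among them.

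The first group by role held 23 long genes of T cell and phosphoinositide signalling. By DESeq2 none rose and 4 fell (0 and 8 at an unadjusted p under 0.05), and edgeR called none of them in either direction. These counts and those of the lists that follow are to be read beside the 1.98% of all genes and 5.49% of the long genes that rose, the 1.62% and 5.78% that fell, and the 13.6% and 28.3% that had an unadjusted p under 0.05 either way, and nothing particular to a list was tested. The median log2 fold change was -0.03, and 10 of 23 were higher in cKO. Itpr1, the inositol trisphosphate receptor that releases calcium from the endoplasmic reticulum, was at 932 and 839 CPM in the controls and 740.4 and 707 in the cKO libraries (-0.34 ± 0.07, adjusted p = 8e-05). Plcb4, a phospholipase C that makes that messenger, was at 49.5 and 52.0 against 36.2 and 37.2 CPM (-0.52 ± 0.11, adjusted p = 0.00041). Prkce, a protein kinase C, was at 195 and 176 against 154 and 155 CPM (-0.31 ± 0.08, adjusted p = 0.004), and Dock2, an activator of Rac in lymphocytes, at 3577 and 3267 against 2944 and 2909 CPM (-0.28 ± 0.06, adjusted p = 0.00078).

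Prkce and Dock2 were called only with the length correction, so that 2 of 23 fell without it. Pip5k1b, which makes the substrate of phospholipase C but was not in the list, was at 309 and 343 against 298 and 249 CPM (-0.31 ± 0.10, adjusted p = 0.039) and also depended on the correction. Its log2 fold change was -0.20 without control replicate 2 and -0.19 without cKO replicate 2. The rest of the list included kinases and adaptors of high output that did not pass the test, such as Camk4, Skap1, Prkcb, Prkca and Elmo1, with log2 values between -0.13 and 0.06.

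Of 28 transcription and chromatin factors, 3 rose and 2 fell (4 and 6 at an unadjusted p under 0.05), and the median was -0.04. Nfia, a nuclear factor I protein (chr4:97581943-98118876), was at 97.8 and 94.2 CPM in the controls and 171 and 176 in the cKO libraries, a log2 fold change of 0.80 ± 0.08 (adjusted p = 7.1e-20). Hdac9, a class IIa histone deacetylase, was at 8.30 and 9.57 against 14.3 and 15.1 CPM (0.67 ± 0.20, adjusted p = 0.024), and Hivep3, a zinc finger factor, at 60.3 and 67.2 against 84.7 and 81.9 CPM (0.33 ± 0.10, adjusted p = 0.041). Auts2, a partner of Polycomb proteins that also hosts a fragile site, was at 17.3 and 22.3 against 14.6 and 11.3 CPM (-0.67 ± 0.20, adjusted p = 0.027). Glis3, a zinc finger factor, was at 59.5 and 78.5 against 53.4 and 45.3 CPM (-0.54 ± 0.14, adjusted p = 0.0071). The replicates of Nfia differed little, whereas those of Auts2 and Glis3 spread widely in both genotypes. Without control replicate 2 their log2 fold changes were -0.41 and -0.29, and neither was called without control replicate 2 or without either cKO library. Maml3, a Notch coactivator, was at 231 and 224 against 273 and 276 CPM, and its increase was not called with the correction (log2 fold change 0.27 and adjusted p = 0.012 before, 0.22 and 0.058 after).

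The 42 cytoskeletal and small GTPase genes had a median of -0.11, which was -0.05 without control replicate 1 and -0.02 with a trend drawn from all genes above 0, with 2 increases (Dnm3 and Diaph3) and 2 decreases (Dock2 and Nav2). At an unadjusted p under 0.05, 2 were higher and 12 lower, and edgeR called 1, Dnm3. Nav2, a protein of microtubules, was at 1133 and 1175 against 992 and 992 CPM (-0.27 ± 0.07, adjusted p = 0.0052), and was called only with the correction. The 29 genes of trafficking, ubiquitin and autophagy had a median of 0.02 (4 higher and 3 lower at an unadjusted p under 0.05) and 1 increase, Gphn, at 101 and 92.3 against 115 and 135 CPM (0.32 ± 0.10, adjusted p = 0.037) and 0.20 without cKO replicate 2. Patj, a polarity scaffold outside the lists, was at 1462 and 1237 against 1157 and 1142 CPM (-0.28 ± 0.07, adjusted p = 0.0078), the highest level among the calls gained after Dock2. Without control replicate 1 its log2 fold change was -0.19.

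Celf2, an RNA-binding protein, Cers6, a ceramide synthase, and Adk, adenosine kinase, were also called without the correction and not with the main one. With a trend drawn from all genes above 0 they were called as well, at log2 fold changes of 0.37, 0.29 and 0.34. Celf2 was at 753 and 729 against 919.8 and 891 CPM, with a log2 fold change of 0.29 before and 0.24 after the correction. Its adjusted p-value stayed under the threshold, at 0.011, and its fold fell below 1.2. Cers6 was at 1781 and 1633 against 2026 and 2168 CPM (0.29 before and 0.24 after), and Adk at 156 and 132 against 181 and 176 CPM (0.31 and 0.26). Their libraries did not overlap, so these are changes near the fold and p limits.

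Hosts of common fragile sites gave 23 genes, of which none rose by DESeq2 and 1 fell, Auts2 (0 and 3 at an unadjusted p under 0.05, and none either way by edgeR), and 5 were higher in cKO. Their median was -0.15, and 0.01 without control replicate 1. This list held 14 genes under 10 times the background in 1 or more libraries, and its low values, such as -1.10 for Cntnap2 and -1.06 for Lsamp, did not pass the test and were -0.66 and -0.11 without control replicate 1. Fhit and Wwox, classical fragile genes of higher output at 139 and 212 CPM, had log2 values of -0.15 and 0.10 and did not pass either.

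The 32 synaptic and adhesion genes had a median of -0.01, with 2 increases (Dnm3 and Kcnq5) and 1 decrease (Slit3). At an unadjusted p under 0.05, 9 were higher and 5 lower, and 21 of them were under 10 times the background in 1 or more libraries. Without control replicate 1 the median was 0.22. Cacna1e, a calcium channel subunit, had the lowest value of all long genes, -1.69, and was not called (adjusted p = 0.27). It was at 384 CPM in control replicate 1, 118 in control replicate 2 and 87.5 and 72.5 in the cKO libraries, and without control replicate 1 the log2 fold change was -0.64. The groups did not overlap. Over all 346 genes, 10 had a log2 fold change of at least 1 in size, of which 4 were called and 8 were under 10 times the background in 1 or more libraries.

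**Figure D5:**
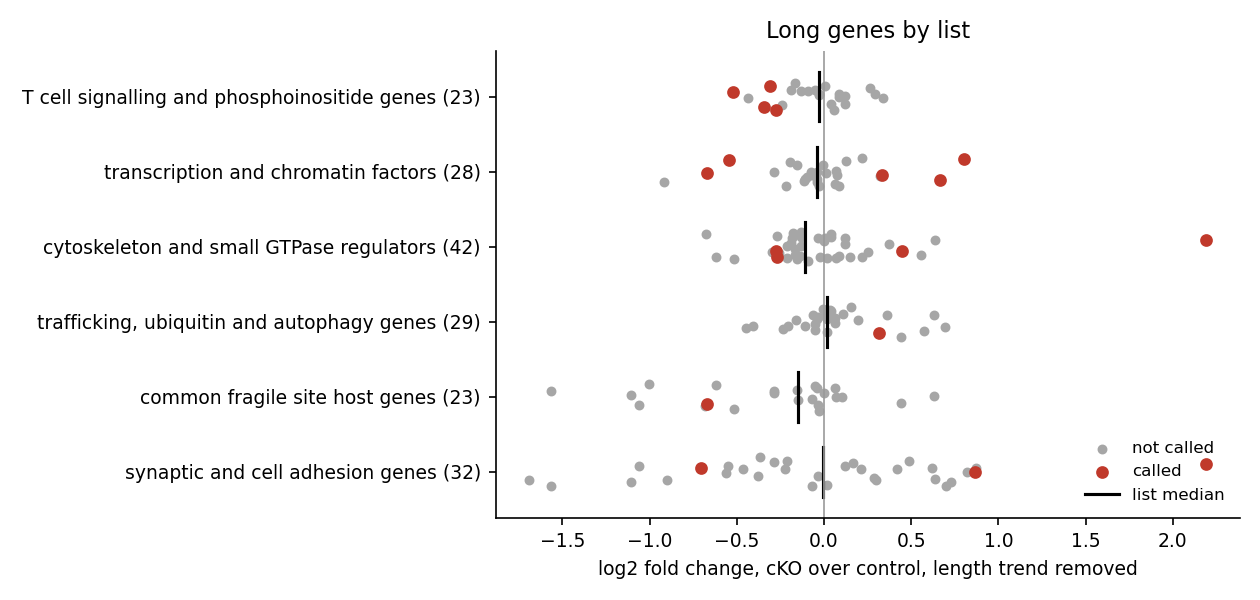
Log2 fold change, cKO over control with the length trend removed, for the long genes of 6 lists (number of genes in parentheses); red points passed the test and black bars are list medians. Medians lie between -0.15 and 0.02, and called genes occur on both sides of 0.

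In GC content, which the choice did not use, the 20 decreases had a median of 44.3% and the 19 increases of 41.5%, against 41.8% for genes not called. Length and level were part of the choice and are given as a description. Median lengths of decreases, increases and genes not called were 348, 390.1 and 364 kb. The decreases had a median output of 146 CPM, the increases 73.5 and the rest 41.1. Among genes with a matched start, 9 of 12 decreases and 6 of 14 increases had a CpG-rich window, and a GC box was present in 10 of 12 and 4 of 14. These are descriptions of small groups without a test. Of the calls, 35 were among the 240 genes at 10 or more times the background and 4 (Lrmda, Dnm3, Myo3b and Hdac9) among the other 106. Slit3, Glis3, Fndc3b, Itpr1 and Pip5k1b overlap another gene on the same strand, where fragments may be shared.

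The labels were checked on the deleted gene and on markers. Tox4 was at 74.0 and 70.3 CPM in the controls and 59.3 and 57.2 in the cKO libraries, a log2 fold change of -0.30 ± 0.10 (adjusted p = 0.058, 0.045 without the length correction). Fragments over the whole gene were counted, of which exons 4 to 6 are a part, and the libraries went in the labelled direction. Of 11 listed DP thymocyte markers, 9 were at over 100 CPM in every library, Rag2 was at 36.9 to 47.0 CPM, and Ptcra, which is highest before the DP stage, was at 5.63 to 7.25 CPM. Of 25 listed markers of B cells, myeloid, erythroid, thymic epithelial and neural cells, 22 were at or under 2 CPM in every library, the highest was Cst3 at up to 16.0 CPM, and Psmb11 was at 0 in all. Xist was at 172 CPM in control replicate 1 and at most 2.36 in the others, which is the difference seen between sexes. This difference goes against the matching for sex that the methods state, and its part in the results was not tested. Of the 14 X-linked long genes 1, Pola1, was called.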

How the data were processed

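TTchem-seq libraries of DP thymocytes, 2 from control and 2 from cKO mice, were analysed, grouped by sample title. How many mice gave the cells of a library is not stated. Per the labels and methods, the authors trimmed and filtered with fastp 0.13.1, mapped with STAR 2.7.9a to GRCm38 (mm10) and counted genes; featureCounts 1.6.1 is also named in the submitters' processing notes. The deposited table held expected counts, fragments per gene with 8.61% of values fractional, and a Length column, another deposited value in bp, which was the union of the transcript intervals with introns. The methods state counts over genes from the STAR output, which would be whole numbers, so how the fractions arose is not given in the sources used here. The labels also describe a poly(A) protocol beside TTchem-seq. Strand use and removal of duplicates were not stated for this table, and spike-in scaling was not used. Library totals were 42626473, 48690591, 38429786 and 39760312 fragments, which are not independent molecules, so the counts cover counting error only. The p-values rest on the spread between these libraries, and the spread of each gene was partly estimated from that of other genes.

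Counts were rounded and tested in DESeq2 1.42.0 (R 4.3.3; Wald test, unshrunken fold changes, all genes) with normalisation factors that joined median-ratio size factors with each library's length trend. The trend was a lowess fit (span 0.3, 3 iterations, pseudocount 0.5) on log10 length of the log2 deviation of genes of at least 1 CPM from the mean of the 4 libraries. A call needed an adjusted p (Benjamini-Hochberg, over all genes) under 0.05, a fold of at least 1.2 and a mean of at least 1 CPM. The same test without the trend is the method the study states, and edgeR 4.0.16 and limma 3.58.1 (voom) were alternatives. Values with ± are standard errors. Coordinates are those of the table (GRCm38), and the promoter windows come from RefSeq. The procedure was run on counts simulated with a straight length slope in each library, a common dispersion and changed genes drawn at random. These counts held no shift common to the long genes and no raised background in a library. The run therefore does not show how the correction treats either. The named genes were Lrmda and Dnm3, the 8 largest called increases and decreases with separated libraries, the 5 highest by CPM and by CPM per kb, the 4 longest, 2 on each side of each limit, up to 4 calls lost and up to 4 gained by the length correction, and called genes of the signalling and transcription lists. Other named genes were chosen after their values were seen. Some genes that the rule or the counts include are not reported here by name. The set of genes, the lists and the rule were chosen with earlier results of these data known. Replicate numbers are shared between genotypes but do not pair the libraries (correlation of deviations 0.0175 over expressed genes and 0.0125 over long genes).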

Additional observations from a re-analysis of the deposited data

How the results depend on the processing

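The number of long genes called depended on the test. With 19 increased and 20 decreased in the main analysis, edgeR gave 6 and 2 (7 and 0 without the length correction), limma voom 7 and 6, a fold of at least 1.5 gave 12 and 5, and a trend drawn from all genes above 0 left 10 decreased. Without the length correction 13 decreased. A straight line on length and a trend from genes of at most 250 kb each gave 14 increased and 28 decreased. Shares over all genes were taken only for DESeq2 with and without the correction and for edgeR and limma voom with it. Whether the share of long genes exceeded that of all genes in the other settings was not examined. A length limit of 200 kb gave 32 increased of 501 genes, against 19 of 346. The replicate block, which uses shared numbers that do not pair the libraries, gave 13 increased and 10 decreased, and 4 decreased without the length correction. Leaving out each library in turn gave 3 to 19 increased and 4 to 15 decreased, the fewest without cKO replicate 2. edgeR's 0 decreases without the correction stand beside 13 by DESeq2 and 37 at an unadjusted p under 0.05 by edgeR. Where a library was left out, the lone library of a genotype is assumed to vary like the other genotype. The replicate block and edgeR without the correction, the background values and the subsets by density were chosen after seeing the data.

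The median log2 fold change of the long genes was -0.0093. It was 0.0411 without the length correction, -0.061 with a straight line, -0.0703 with a trend from genes of at most 250 kb, -0.036 with length and GC trends, 0.0619 with a trend from all genes above 0, and -0.0378 for genes over 300 kb. It was -0.0167 to 0.00399 with a library left out. In the same order of the first 5 settings, signalling genes had 0.0155, -0.0886, -0.0966, -0.0608 and 0.0311. Transcription factors had 0.0112 without the correction, -0.083 with a line, -0.0916 with the shorter genes and 0.0353 with all genes above 0, and trafficking genes 0.0672, -0.0313 and 0.0868 for the same settings other than the line. With all genes above 0, cytoskeletal genes had -0.0213 and fragile site hosts 0.0534. With at least 1 CPM in every library, synaptic genes had 0.191. With a library left out, medians ranged from -0.0613 to 0.00253 for signalling genes, -0.0376 to 0.00971 for transcription factors, -0.12 to -0.0497 for cytoskeletal genes, -0.0128 to 0.0556 for trafficking genes, -0.221 to 0.00648 for fragile site hosts and -0.0901 to 0.222 for synaptic genes. The uncorrected class medians ranged from 0.0427 to 0.0567 (250 to 500 kb), -0.029 to 0.0817 (500 to 1000 kb) and -0.589 to -0.0674 (over 1000 kb), and the median density from 0.143 to 0.148 CPM per kb. The causes were not tested beyond what each setting changes.

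Of the 38 genes named by the rule, none reversed a call. Calls were lost in 99 and gained in 8 comparisons of a gene with another setting, and lost in 53 and gained in 3 with a library left out. With 2 libraries of each genotype and few fragments for the low genes, small changes of those genes were not detectable.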
